A study of Mus musculus with 6 samples.

Results

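The genes described here are 37 mouse genes of the outermost layer of Wnt signalling, namely 19 Wnt ligands, 10 Frizzled receptors and 8 secreted antagonists of the Dkk and Sfrp families. They were chosen by name and not by any measured value, although earlier results of these data were known then. Each gene was represented by the called cytosine positions that lie between 5000 bp before and 5000 bp after its GRCm38 span. Of the 37 genes, 36 held at least 1 called position and 35 held at least 3, and together they held 1170 distinct positions. Over all 21887 protein-coding genes the same windows held 315336 distinct positions.

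The data come from 6 cultured mouse lines and from bisulfite sequencing of a reduced, CpG-rich part of the genome, an assay in which unmethylated cytosines are converted and methylated ones are not. OG2, the strain given for all 6, is known for a fluorescent reporter driven by Pou5f1 regulatory sequence. The lines were induced pluripotent stem cells derived from germline stem cells (iPSC, 2 independent lines), pluripotent stem cells derived from the germline (gPSC, 2 independent lines), germline stem cells (GSC, 1 line) and embryonic stem cells (ESC, 1 line). The title of the series concerns epigenetic memory of the starting cell in reprogramming by transcription factors. The labels give neither the reprogramming factors nor the age or sex of the source animals nor the passage of the lines. Each of the 5 lines other than ESC has 2 lists of positions, those more methylated and those less methylated than a reference library that is not named in them. That reference is taken here to be the ESC line, the only sample without lists. Higher positions are called hyper and lower ones hypo, and every value below is the line minus that reference, in percentage points of methylation, unless stated otherwise.

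Wnt ligands are lipid-modified secreted proteins that bind Frizzled receptors on the surface of the receiving cell. In the canonical branch, binding stabilises beta-catenin, which then acts with TCF and LEF factors on target genes, while other ligands such as Wnt5a mostly act without beta-catenin. Sfrp proteins bind Wnt ligands outside the cell, and Dkk proteins act mainly on the LRP co-receptors. Canonical Wnt signalling helps to maintain mouse embryonic stem cells in culture, and Wnt ligands and Frizzled receptors are also used in the testis. Many of these genes begin in CpG islands, short CpG-rich stretches that usually carry little methylation.

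The lists hold called positions only, with a q of at most 0.01 and a difference of at least 25 points. No coverage and no level of methylation is given. The sequencing depth of a position is therefore unknown, and a position that is not listed can be unchanged or unmeasured. A difference still bounds the measured levels, because a position at +60 points can have had at most the remaining share of methylation in the reference. Such bounds concern the listed cytosine alone. The promoter of Pou5f1, the factor whose regulatory sequence the reporter also carries, held 8, 19, 13, 12 and 51 hyper positions in iPSC 1, iPSC 2, gPSC 1, gPSC 2 and GSC, and 5, 3, 3, 2 and 1 hypo positions in the same order of lines. Reporter copies and the gene itself cannot be told apart there.

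A property of the lists touches many of these genes. In promoter sequences, 99.8% to 99.9% of listed positions fell on the C or the G of a CpG. There, 2 positions 1 bp apart are thus mostly the cytosines of the 2 strands of 1 CpG. Where both strands were listed in the same line in these promoter sequences, they had opposite directions in 99.2% to 99.5% of such pairs in the iPSC and gPSC lines and in 96.8% in GSC. Outside the promoter sequences it was not determined which pairs 1 bp apart are the strands of 1 CpG. Of all pairs of listed positions 1 bp apart, 92.8%, 98.0%, 94.4%, 93.8% and 77.9% were opposite at the Wnt genes in iPSC 1, iPSC 2, gPSC 1, gPSC 2 and GSC, against 83.7%, 87.0%, 86.7%, 79.3% and 63.3% over all listed positions, so the share was higher at the Wnt genes in each of the 5 lines. Of the opposite pairs, 73.5% to 81.8% summed to within 5 points of 0 at the Wnt genes, against 81.6% to 88.1% over all listed positions. Of the listed positions at the Wnt genes, 27.6% to 36.5% in the iPSC and gPSC lines and 24.0% in GSC lay beside an opposite one, against 18.2% to 24.8% over all gene windows. What produces opposite values on the strands of a CpG was not tested, so levels derived from differences below are levels as measured. Results below are therefore given with all positions and, where the outcome changes, also without positions that lie 1 bp from an opposite one in the same line.

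Hyper positions outnumbered hypo positions at the Wnt genes in all 5 lines. The 37 windows held 262 hyper and 127 hypo positions in iPSC 1, 205 and 132 in iPSC 2, 268 and 137 in gPSC 1, 252 and 90 in gPSC 2, and 414 and 166 in GSC. The hyper share was 67.4% in iPSC 1, 60.8% in iPSC 2, 66.2% in gPSC 1, 73.7% in gPSC 2 and 71.4% in GSC. Over all gene windows the hyper share was 75.5%, 72.3%, 75.5%, 82.1% and 77.5% in the same order of lines, so it was lower at the Wnt genes in each of the 5. Without positions beside an opposite one, it was 76.7%, 65.2%, 75.5%, 85.0% and 78.2% at the Wnt genes and 82.8%, 78.0%, 83.9%, 89.3% and 84.0% over all gene windows. The median hyper difference at the Wnt genes was 41.5 points in iPSC 1, 54.0 in iPSC 2, 46.0 in gPSC 1, 43.4 in gPSC 2 and 51.1 in GSC. The median density of listed positions was 0.797 per kb at the Wnt genes against 0.231 per kb over all protein-coding genes. By role, the 19 ligands held 185, 133, 187, 164 and 270 hyper positions in iPSC 1, iPSC 2, gPSC 1, gPSC 2 and GSC, and 91, 97, 89, 58 and 103 hypo positions. The 10 receptors held 61, 64, 64, 70 and 116 hyper positions and 26, 31, 40, 29 and 60 hypo positions in the same order of lines. Sfrp4, a Wnt-binding antagonist, held none, and Dkk2 held 1, a hyper position in GSC at 100 points.

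**Figure D1:**
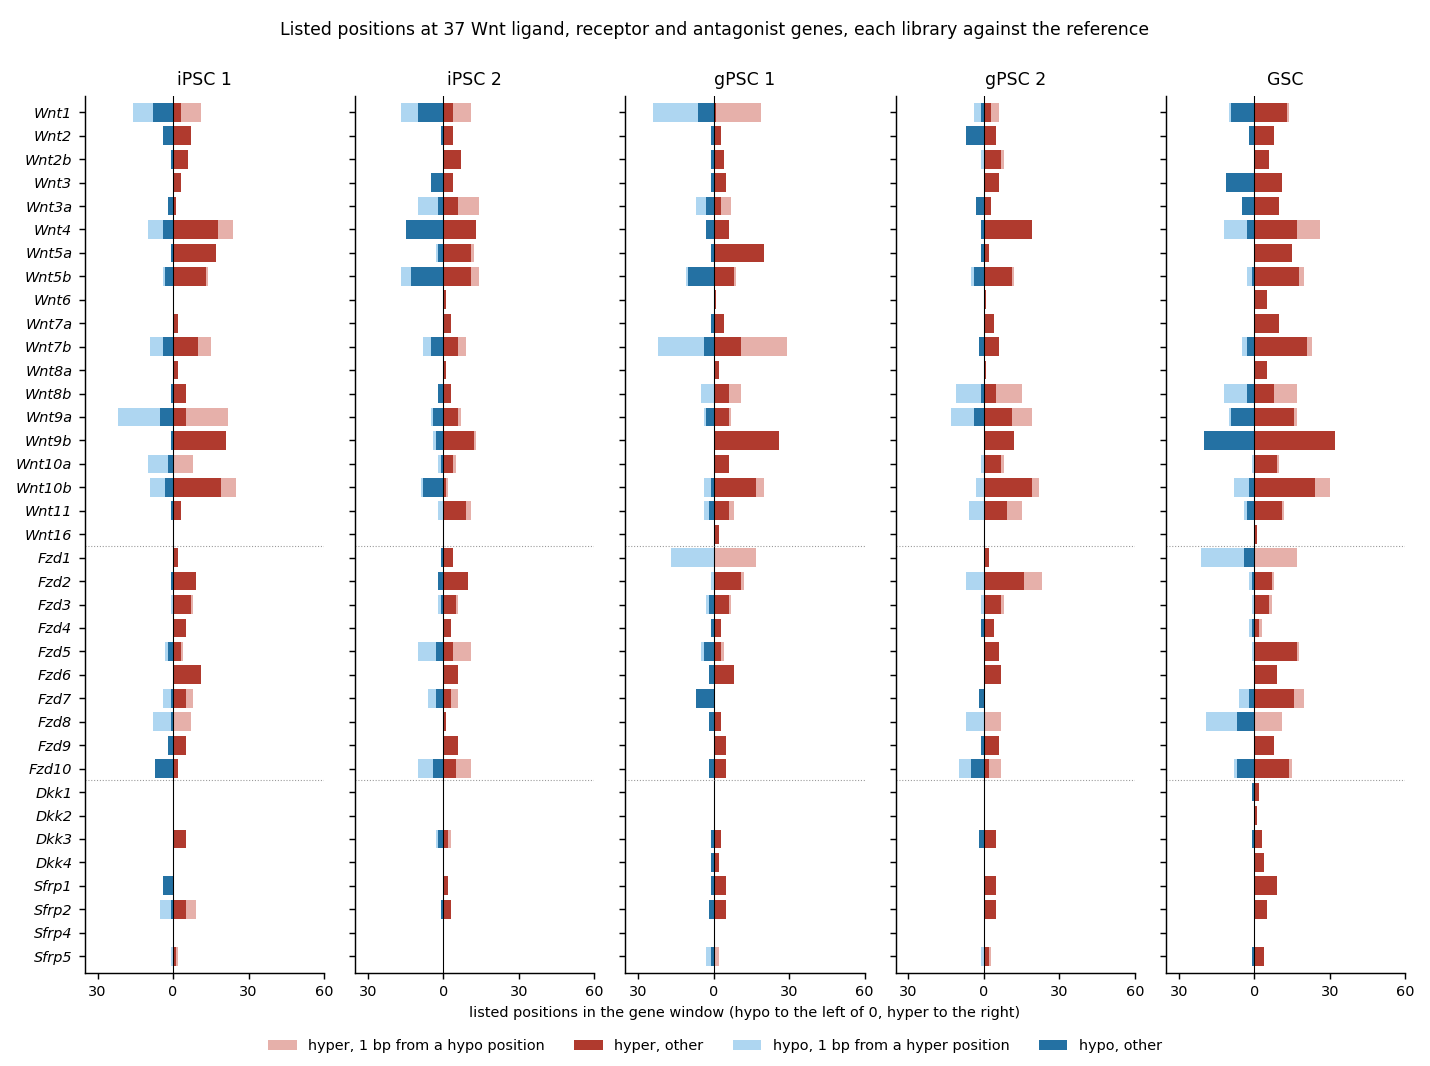
Number of listed positions in the window of each of the 37 genes, with hyper positions to the right of 0 and hypo positions to the left, in iPSC 1, iPSC 2, gPSC 1, gPSC 2 and GSC; pale parts of the bars are positions 1 bp from an opposite one in the same line, and dotted lines part ligands, receptors and antagonists. In gPSC 1 the bars of Fzd1 are pale over their whole length, while GSC has dark bars of 32 hyper and 20 hypo positions at Wnt9b.

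A gene window was called hyper or hypo in a line when it held at least 3 positions of that direction and these made up at least 80% of its listed positions there. For iPSC and gPSC both lines had to be called. Of the 35 Wnt genes with at least 3 listed positions, 5 were called hyper in both iPSC lines, which is 14.3%, where 20.5% of all 15971 gene windows were. They were Wnt2b, Wnt5a, Fzd2, Fzd4 and Fzd6. In both gPSC lines 9 were called hyper, or 25.7% against 28% of all gene windows. These were Wnt2b, Wnt3, Wnt7a, Wnt9b, Wnt10a, Wnt10b, Fzd6, Fzd9 and Sfrp1. In GSC 18 were called hyper, or 51.4% against 48.5%, comprising 9 of 19 ligands, 5 of 10 receptors and 4 of 6 antagonists. None was called hypo in both iPSC lines, in both gPSC lines or in GSC, where 0.244%, 0.232% and 2.72% of all gene windows were. These shares lie near those over all genes. No test of the difference was made. Without positions beside an opposite one, 7, 11 and 21 of the 35 were called hyper in both iPSC lines, in both gPSC lines and in GSC, against 24.4%, 33.5% and 55.7% of all gene windows. Fzd1 and Fzd8 were then called hypo in GSC, where 3.93% of all gene windows were, and none was called hypo in both iPSC lines or in both gPSC lines, where 0.433% and 0.344% were.

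Close to the start sites the picture in GSC was mixed. A promoter window from 2000 bp before to 500 bp after the start could be assessed for 18 of the 37 genes. In GSC 4 of these were called hyper (Wnt1, Wnt5a, Wnt10a and Sfrp5), or 22.2% against 12.2% of 7509 promoter windows. A further 3 were called hypo (Wnt3a, Wnt9a and Wnt9b), or 16.7% against 13.1%. The promoter window of Wnt5a was the only 1 called in both iPSC lines, as hyper, where 2.45% of all promoter windows were. None was called hyper in both gPSC lines, where 3.2% were, and none hypo in both lines of either kind, where 0.732% of promoter windows were for iPSC and 0.586% for gPSC. Without positions beside an opposite one, 17 promoter windows could be assessed and Fzd10 joined those called hypo in GSC, against 20.3% of all promoter windows. The 4 called hyper in GSC were the same genes, against 16.5%. Wnt5a was again called hyper in both iPSC lines, against 3.14%, and none was called hypo there, against 1.35%. In both gPSC lines none was called hyper or hypo, against 4.32% and 1.24%.

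**Figure D2:**
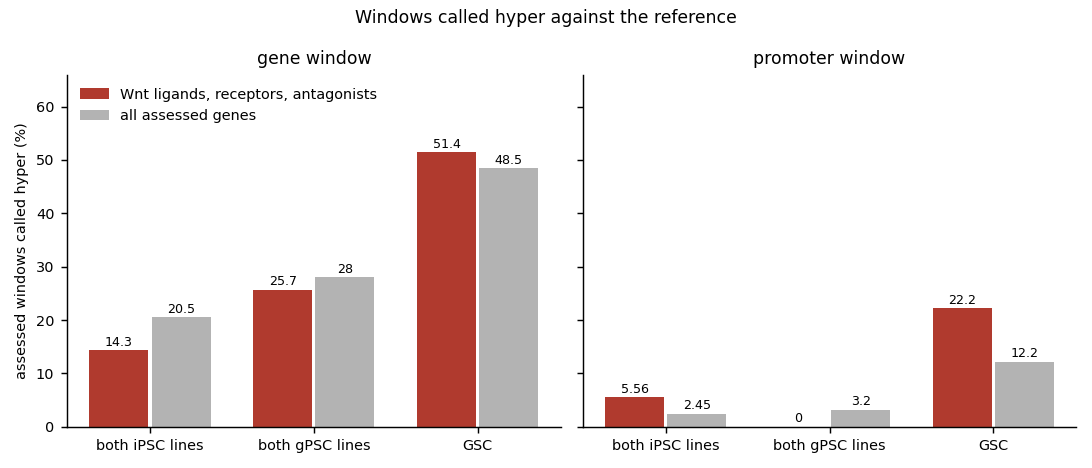
Percentage of assessed windows called hyper in both iPSC lines, in both gPSC lines and in GSC, for the Wnt ligand, receptor and antagonist genes (red) and for all assessed genes (grey), with gene windows on the left and promoter windows on the right. In gene windows the Wnt genes stand at 14.3%, 25.7% and 51.4% beside 20.5%, 28% and 48.5% for all genes, and in promoter windows at 5.56%, 0% and 22.2% beside 2.45%, 3.2% and 12.2%.

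Among the ligands, Wnt5a, the prototype of the ligands that act without beta-catenin, carried higher methylation in iPSC 1, iPSC 2, gPSC 1 and GSC. It held 17, 12, 20, 2 and 15 hyper positions in iPSC 1, iPSC 2, gPSC 1, gPSC 2 and GSC, and 1, 3, 1, 1 and 0 hypo positions. In a stretch of 85 bp shortly after the 5′ end of the gene span, chr14:28504727-28504811, 9 positions averaged 65.6 points in iPSC 1, 7 averaged 79.6 points in iPSC 2, 9 averaged 52.7 points in gPSC 1 and 7 averaged 39.9 points in GSC. No position of this stretch was listed in gPSC 2, and none lay beside an opposite one in any line. The values were even along the stretch, from 60.2 to 70.9 points in iPSC 1, from 76.8 to 92.4 in iPSC 2, from 51.9 to 54.6 in gPSC 1 and from 34.1 to 52.1 in GSC. The reference could have at most 7.58% to 35.4% methylation at these positions.

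The reference cancels when 2 lines are subtracted at positions listed in both, so the lines can be set against each other at Wnt5a. At the shared positions iPSC 1 was 12.8 points above gPSC 1 (9 positions, 8.32 to 18.9) and iPSC 2 was 27.2 points above gPSC 1 (7 positions, 23.2 to 38.8). Against GSC, iPSC 1 was 25.9 points higher (7 positions, 8.07 to 36.8), iPSC 2 was 42.8 points higher (5 positions, 24.7 to 58.3), and gPSC 1 differed by 13.1 points (7 positions, −0.246 to 19.5). The 2 iPSC lines themselves lay apart by −14.2 points (iPSC 1 minus iPSC 2, 7 positions), a spread as wide as the step between iPSC 1 and gPSC 1. Positions within a stretch of this length can share reads and are not replicates, and such differences are known only where both lines passed the authors' thresholds.

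**Figure D3:**
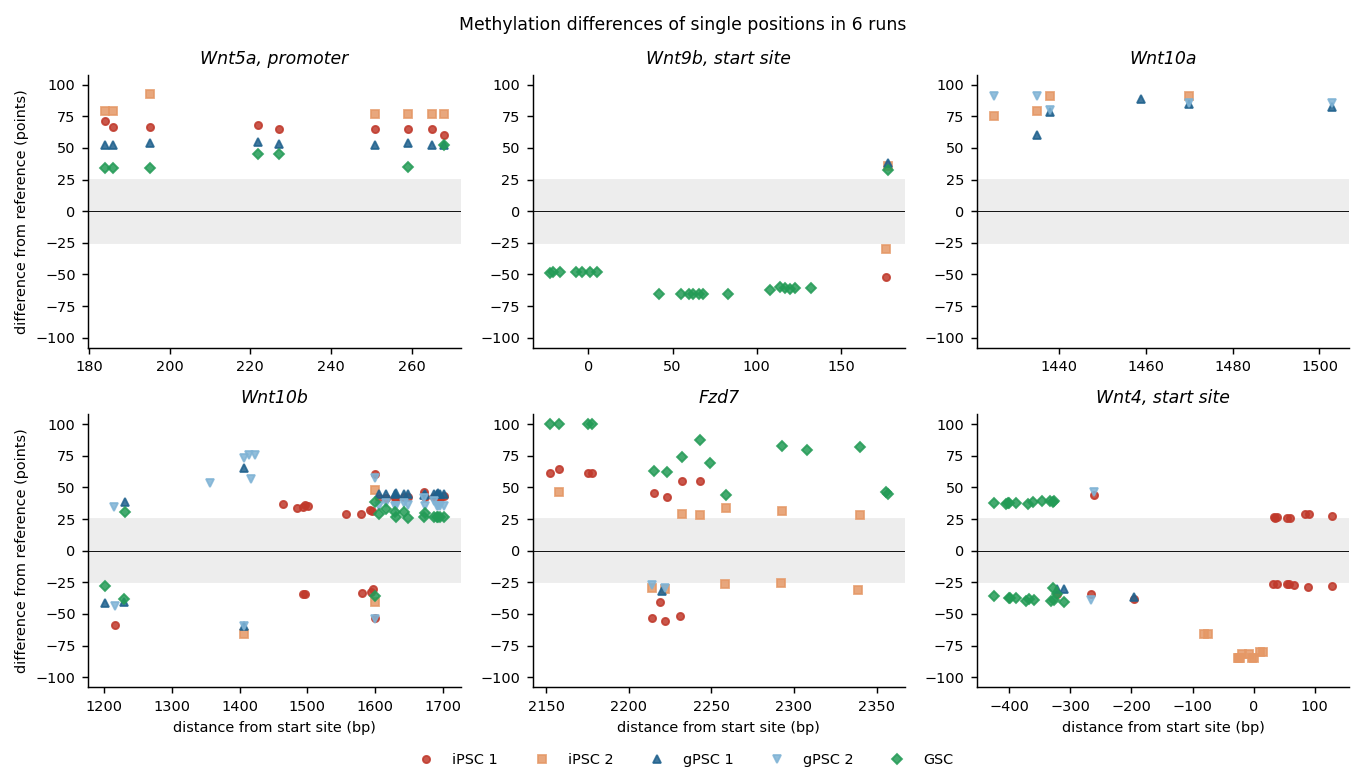
Difference from the reference, in percentage points, of single listed positions against their distance in bp from the start site (for Wnt5a and Wnt10a, from the 5′ end of the gene span) in 6 stretches; symbols and colours mark iPSC 1, iPSC 2, gPSC 1, gPSC 2 and GSC, and no listed position can fall in the grey band between −25 and 25 points. At Wnt5a the line with the highest values is iPSC 2 and the lowest is GSC, at Wnt9b the 20 hypo positions of GSC lie between −48.1 and −65.4 points, with a hyper position of 32.9 points at the far end, and at Wnt4 iPSC 2 lies between −65.7 and −85.2 points there.

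Wnt9b, a ligand known from kidney development, had higher methylation within the gene in all 5 lines and lower methylation at its start site in GSC. It held 21, 13, 26, 12 and 32 hyper positions in iPSC 1, iPSC 2, gPSC 1, gPSC 2 and GSC, and 1, 4, 0, 0 and 20 hypo positions. In chr11:103749643-103749844, across the start site, iPSC 1, iPSC 2, gPSC 1 and gPSC 2 had 1, 2, 1 and 0 listed positions. All 20 hypo positions of GSC lay in this stretch, with a single hyper position of 32.9 points at its far end, and none of the 20 lay beside an opposite one. Of these 20, 7 between 23 bp before and 5 bp after the start site had −48.1 to −48.9 points, and the 7 between 42 and 83 bp after it all had −65.4 points. The promoter sequence shows which CpGs these were. It is given 5′ to 3′ on the gene's strand from the RefSeq table (GRCm38.p6, chr11:103749772-103750071, minus strand, 250 bp before to 50 bp after the start), with the CpGs that hold a position listed in GSC in capitals, 8 of 29.
Wnt9b: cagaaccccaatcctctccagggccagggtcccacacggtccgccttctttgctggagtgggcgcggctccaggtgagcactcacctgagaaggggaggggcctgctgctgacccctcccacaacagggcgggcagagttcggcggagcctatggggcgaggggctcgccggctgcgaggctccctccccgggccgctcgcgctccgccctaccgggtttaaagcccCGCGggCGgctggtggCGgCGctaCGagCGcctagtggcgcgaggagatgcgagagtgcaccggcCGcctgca
All 8 listed bases were on the same DNA strand, the minus strand of the chromosome. The partner cytosines on the plus strand were not listed. Farther into the gene, the stretch chr11:103731013-103731332 held 6, 2, 10, 4 and 12 hyper positions in iPSC 1, iPSC 2, gPSC 1, gPSC 2 and GSC, and no hypo position in any line. Its mean was 64.6 points in iPSC 1, 83.2 in iPSC 2, 52.8 in gPSC 1, 71.7 in gPSC 2 and 59.9 in GSC. At the positions shared with GSC, iPSC 1 differed from GSC by −4.59 points (6 positions, −12.8 to 3.64) and gPSC 1 by −12.0 points (10 positions, −23.3 to 13.1), so some positions lay above GSC and others below.

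Wnt4, a ligand of the early gonad, was described after its values were seen. In iPSC 2 it held 11 hypo positions from −65.7 to −85.2 points across the start site and no hyper position in the same stretch, chr4:137277210-137277764. The measured levels that these values allow are at most 34.3% methylation in iPSC 2 and at least 65.7% in the reference, on the plus strand alone. In the same stretch iPSC 1 had 9 hyper and 10 hypo positions, gPSC 1 had 0 and 3, gPSC 2 had 1 and 1, and GSC had 11 and 12, and 12 of those in iPSC 1 and 18 of those in GSC lay beside an opposite one. The 11 CpGs listed in iPSC 2 are in capitals in the promoter sequence, out of 51 (RefSeq, GRCm38.p6, chr4:137277385-137277684, plus strand).
Wnt4: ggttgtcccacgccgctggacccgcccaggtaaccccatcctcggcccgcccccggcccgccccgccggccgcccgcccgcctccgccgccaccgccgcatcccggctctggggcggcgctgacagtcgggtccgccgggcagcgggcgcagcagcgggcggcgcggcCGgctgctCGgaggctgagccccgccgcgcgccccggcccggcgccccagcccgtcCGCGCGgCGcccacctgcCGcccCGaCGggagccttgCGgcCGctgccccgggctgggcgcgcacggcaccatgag
All 11 listed bases were cytosines of the plus strand. Over its whole window Wnt4 held 24, 13, 6, 19 and 26 hyper positions and 10, 15, 3, 1 and 12 hypo positions in iPSC 1, iPSC 2, gPSC 1, gPSC 2 and GSC.

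Wnt1, the first ligand known in mammals and a regulator of midbrain development, had stretches of opposite direction in different lines. It held 11, 11, 19, 6 and 14 hyper positions in iPSC 1, iPSC 2, gPSC 1, gPSC 2 and GSC, and 16, 17, 24, 4 and 10 hypo positions. Its upstream stretch, chr15:98789591-98789821, had 10 hypo positions from −27.1 to −82.6 points and no hyper position in iPSC 2. In GSC the same stretch had 7 hyper positions from 36.0 to 82.6 points and 1 hypo position of −92.1 points. Of the listed bases of iPSC 2 in the promoter sequence, 9 of 10 were plus-strand cytosines, while of the hyper ones of GSC 4 of 6 were minus-strand cytosines. In gPSC 1 the 5 hyper bases were minus-strand cytosines and 7 of 8 hypo bases plus-strand ones. In iPSC 1 the strands were the other way round, with all 5 hyper bases on the plus strand and all 10 hypo bases on the minus strand. In gPSC 2 no position of the stretch was listed. At the 7 positions listed in both, iPSC 2 minus gPSC 1 was −42.4 points (−46.6 to −39.7). In this stretch 10 positions of iPSC 1 and 10 of gPSC 1 lay beside an opposite one, and 0 of iPSC 2 and of GSC. Over the whole window 16, 14, 36, 6 and 2 positions did in iPSC 1, iPSC 2, gPSC 1, gPSC 2 and GSC. The sequence has 26 CpGs, of which the 19 listed in any line are in capitals (RefSeq, GRCm38.p6, chr15:98789607-98789906, plus strand).
Wnt1: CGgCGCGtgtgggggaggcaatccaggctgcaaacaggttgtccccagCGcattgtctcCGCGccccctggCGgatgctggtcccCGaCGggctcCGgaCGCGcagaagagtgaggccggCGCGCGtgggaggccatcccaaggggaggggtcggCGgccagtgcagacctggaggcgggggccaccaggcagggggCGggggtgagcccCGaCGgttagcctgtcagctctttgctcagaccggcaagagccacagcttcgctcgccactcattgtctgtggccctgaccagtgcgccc

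Wnt9a, a ligand known from joint formation, held 22, 7, 7, 19 and 17 hyper positions in iPSC 1, iPSC 2, gPSC 1, gPSC 2 and GSC, and 22, 5, 4, 13 and 10 hypo positions. Its promoter window was called hypo in GSC, with 1 hyper and 8 hypo positions and a mean of −47.3 points. In iPSC 1 the stretch across the start, chr11:59306697-59306938, held 17 hyper positions from 27.5 to 45.3 points and 18 hypo positions from −28.4 to −48.4 points, of which 34 lay beside an opposite one. All 17 hyper bases were minus-strand cytosines and all 18 hypo bases plus-strand cytosines. These 35 bases belong to 18 CpGs, in capitals out of 58 (RefSeq, GRCm38.p6, chr11:59306680-59306979, plus strand).
Wnt9a: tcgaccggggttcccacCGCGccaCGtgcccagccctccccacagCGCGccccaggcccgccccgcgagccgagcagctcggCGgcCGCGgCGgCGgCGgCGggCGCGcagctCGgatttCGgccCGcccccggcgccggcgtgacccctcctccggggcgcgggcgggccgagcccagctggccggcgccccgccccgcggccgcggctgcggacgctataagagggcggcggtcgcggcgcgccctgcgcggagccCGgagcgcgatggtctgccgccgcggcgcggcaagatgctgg

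Wnt10a, a ligand of skin and tooth development, differed between lines in 2 places. It held 8, 5, 6, 8 and 10 hyper positions in iPSC 1, iPSC 2, gPSC 1, gPSC 2 and GSC, and 10, 2, 0, 1 and 1 hypo positions. Within the gene, chr1:74793444-74793522, 4 positions in iPSC 2 averaged 84.0 points, 5 in gPSC 1 averaged 79.0 and 5 in gPSC 2 averaged 86.5. Neither iPSC 1 nor GSC had a listed position there, and the reference could have at most 9.09% to 14.6% methylation. At the 5′ end of the gene, chr1:74791998-74792098, iPSC 1 had 7 hyper and 8 hypo positions of which 14 lay beside an opposite one, and GSC had 7 hyper positions averaging 33.8 points. At the 4 positions listed in both, hypo in iPSC 1 and hyper in GSC, iPSC 1 minus GSC was −59.9 points (−71.7 to −55.9). Without positions beside an opposite one, iPSC 1 kept 0 hyper and 2 hypo positions in the whole window of the gene. Most of this comparison then drops out. The other 3 lines had no listed position in the stretch at the 5′ end.

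Wnt10b, a canonical ligand known for holding back fat cell formation, held 25, 2, 20, 22 and 30 hyper positions in iPSC 1, iPSC 2, gPSC 1, gPSC 2 and GSC, and 9, 9, 4, 3 and 8 hypo positions. Its gene window was called hyper in both gPSC lines and hypo in iPSC 2. A block of 13 listed positions within the gene, chr15:98776449-98776544, was hyper in iPSC 1, gPSC 1, gPSC 2 and GSC and not listed in iPSC 2. It averaged 42.3 points in iPSC 1 (41.5 to 46.2), 44.9 in gPSC 1 (43.9 to 45.9), 36.6 in gPSC 2 (35.4 to 41.7) and 28.1 in GSC (26.1 to 33.0). All 13 positions were higher in each of these 3 pluripotent lines than in GSC, by 14.1 points in iPSC 1 (8.47 to 19.4), by 16.7 in gPSC 1 (11.6 to 19.1) and by 8.47 in gPSC 2 (4.46 to 14.9). The mean difference of iPSC 1 from gPSC 1 was −2.62 points and from gPSC 2 it was 5.66 points. In the stretch of 500 bp that holds this block, 12, 2, 4, 6 and 4 positions lay beside an opposite one in iPSC 1, iPSC 2, gPSC 1, gPSC 2 and GSC. Over all shared positions of that stretch, iPSC 1 minus GSC was 12.5 points (15 positions, −17.6 to 21.8). For gPSC 1 it was 13.1 points (16 positions, −13.4 to 19.1) and for gPSC 2 7.34 points (15 positions, −18.5 to 18.5). Shared positions below GSC thus lay outside the block in each of these 3 lines. At the start site of the gene, iPSC 2 had 7 hypo positions from −78.8 to −91.5 points, GSC had 4 hyper and 5 hypo positions of which 8 lay beside an opposite one, and the other lines had none.

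Wnt2, a ligand used in placenta and lung, held 7, 4, 3, 5 and 8 hyper positions in iPSC 1, iPSC 2, gPSC 1, gPSC 2 and GSC, and 4, 1, 1, 7 and 2 hypo positions. Hyper and hypo positions lay apart. Within the gene, chr6:18027938-18028086, all listed positions were hyper, 5, 2, 2, 5 and 7 of them, with means of 37.8, 52.5, 59.0, 35.1 and 51.0 points in that order of lines. At the start site, chr6:18030400-18030429, gPSC 2 had 7 hypo positions from −35 to −43.9 points and iPSC 1 had 4 from −43.8 to −47.5. GSC had 1 hypo position there, iPSC 2 had 1 of each direction and gPSC 1 had none. The 7 CpGs of gPSC 2 are in capitals, of 27 in the promoter sequence (RefSeq, GRCm38.p6, chr6:18030396-18030695, minus strand), and all 7 listed bases were cytosines of the chromosome's plus strand.
Wnt2: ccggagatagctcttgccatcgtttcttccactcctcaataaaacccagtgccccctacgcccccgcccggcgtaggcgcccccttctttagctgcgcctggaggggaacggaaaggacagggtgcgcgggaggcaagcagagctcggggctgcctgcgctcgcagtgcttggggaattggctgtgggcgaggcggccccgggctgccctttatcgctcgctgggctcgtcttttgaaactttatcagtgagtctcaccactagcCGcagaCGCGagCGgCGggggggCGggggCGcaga

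Wnt3 and Wnt3a are canonical ligands with roles in the early embryo. Wnt3 held 3, 4, 5, 6 and 11 hyper positions in iPSC 1, iPSC 2, gPSC 1, gPSC 2 and GSC, and 0, 5, 1, 0 and 11 hypo positions. All 11 hypo positions of GSC lay in an intron, chr11:103809846-103810005, with −53.3 to −66.3 points, where the only other listed position was hyper in gPSC 2. The windows of Wnt3 and Wnt9b overlap because the RefSeq span of Wnt9b runs past the start of Wnt3, and 6 positions lie in both. Wnt3a held 1, 14, 7, 3 and 10 hyper positions and 2, 10, 7, 3 and 5 hypo positions in the same order of lines. Its promoter window was called hypo in GSC on 3 positions with a mean of −60.1 points, and 16 of the 24 positions in iPSC 2 lay beside an opposite one.

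Wnt7b, a ligand of lung and placenta, had the most listed positions of the 37 genes, 86. It held 15, 9, 29, 6 and 23 hyper positions in iPSC 1, iPSC 2, gPSC 1, gPSC 2 and GSC, and 9, 8, 22, 2 and 5 hypo positions. In GSC the gene window was called hyper, although 3 hyper and 3 hypo positions lay in chr15:85581104-85581490. Farther into the gene, 5 positions of GSC in chr15:85559971-85560037 stood at 100 points. As measured, that value requires full methylation in GSC and none in the reference, at an unknown depth. No other line had a listed position there. In gPSC 1, 36 of the 51 positions lay beside an opposite one. Most of these were in chr15:85581104-85581490 near the 5′ end of the gene, with 12 hyper and 15 hypo positions of 38.0 to 52.7 points in size. Wnt5b, a close relative of Wnt5a, held 14, 14, 9, 12 and 20 hyper positions and 4, 17, 11, 5 and 3 hypo positions. In iPSC 2 it had 5 hypo positions of −59.0 to −61.4 points just after its most upstream start site. A further 6, of −54.9 to −57.1 points, lay within the gene in chr6:119479593-119479697, a stretch that also held a hyper position of 72.2 points, and none of them was 1 bp from it. No other line had a listed position in either stretch.

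**Figure D4:**
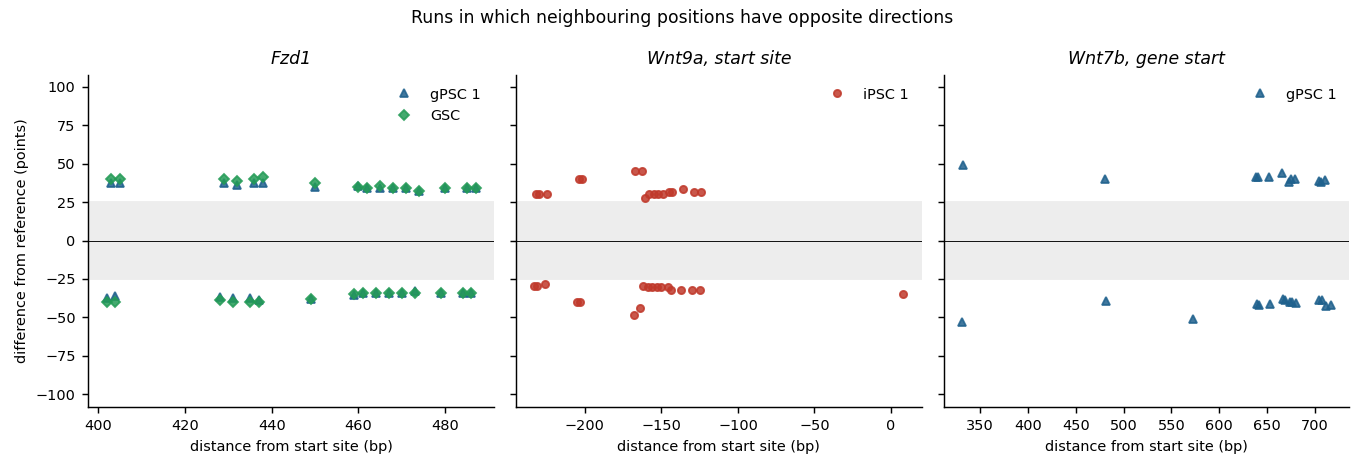
Difference from the reference, in percentage points, of single listed positions against distance in bp from the start site (for Wnt7b, from the 5′ end of the gene span), for Fzd1 in gPSC 1 and GSC, Wnt9a in iPSC 1 and Wnt7b in gPSC 1; the grey band marks differences under 25 points, which the lists do not hold. Hyper and hypo positions lie as mirror images at about the same size, and at Fzd1 the points of gPSC 1 and GSC nearly coincide.

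The other ligands followed the general pattern of more hyper than hypo positions or had few positions. Wnt2b was called hyper in each of the 5 lines, with 6, 7, 4, 8 and 6 hyper positions and 1, 0, 1, 1 and 0 hypo positions in iPSC 1, iPSC 2, gPSC 1, gPSC 2 and GSC. Wnt6 and Wnt8a had 5 hyper positions each in GSC and 0 to 2 in each other line, with no hypo position. Wnt7a had 2, 3, 4, 4 and 10 hyper positions. Wnt16 had 3 listed positions in all. Wnt8b, named here for its mirrored positions, had 10 of 16 positions in gPSC 1, 20 of 26 in gPSC 2 and 18 of 29 in GSC beside an opposite one. Wnt11 held 3, 11, 8, 15 and 12 hyper positions and 1, 2, 4, 6 and 4 hypo positions.

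Among the Frizzled receptors, Fzd6, known for tissue polarity, was called hyper in all 5 lines. It held 11, 6, 8, 7 and 9 hyper positions in iPSC 1, iPSC 2, gPSC 1, gPSC 2 and GSC, and 0, 0, 2, 0 and 0 hypo positions, none beside an opposite one. In chr15:39035151-39035177 within the gene, 4 positions in iPSC 1 averaged 85.4 points, 2 in iPSC 2 averaged 81.8, 4 in gPSC 1 averaged 87.5 and 4 in GSC averaged 93.8. None was listed in gPSC 2, and the reference could have at most 25% methylation there. At the 4 shared positions iPSC 1 differed from GSC by −8.33 points (−33.3 to 0) and gPSC 1 by −6.25 points (−12.5 to 0). GSC stood at 100 points at 3 of these positions, where no line could lie above it.

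Fzd2, a receptor for Wnt5a among others, held 9, 10, 12, 23 and 8 hyper positions in iPSC 1, iPSC 2, gPSC 1, gPSC 2 and GSC, and 1, 2, 1, 7 and 2 hypo positions. A block of 5 positions, chr11:102606051-102606090, was hyper in 4 of the 5 lines, with means of 71.2 points in iPSC 1 (68.9 to 75.0), 57.6 in gPSC 1 (56.7 to 59.6), 66.3 in gPSC 2 (64.1 to 69.6) and 59.5 in GSC (56 to 66). In iPSC 2 only 1 of the 5 was listed, at 50.8 points. Relative to GSC, iPSC 1 lay 11.7 points higher (4.29 to 19), gPSC 2 lay 6.80 points higher (3.59 to 8.17), and gPSC 1 differed by −1.89 points (−6.40 to 1.60), which spans 0. The 2 gPSC lines were themselves apart in this block, with gPSC 1 minus gPSC 2 at −8.7 points. Over all shared positions of the 497 bp stretch holding this block, iPSC 1 minus GSC was 9.69 points (6 positions, −0.417 to 19). For gPSC 2 minus GSC it was −5.44 points (6 positions, −66.7 to 8.17). The mean difference of gPSC 2 from GSC thus changed sign when the stretch outside the block was counted. In gPSC 2, 14 of the 30 positions of the whole window lay beside an opposite one.

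Fzd7 and Fzd1 were described after their values were seen. Fzd7, a main Frizzled receptor of pluripotent cells, held 8, 6, 0, 0 and 20 hyper positions in iPSC 1, iPSC 2, gPSC 1, gPSC 2 and GSC, and 4, 6, 7, 2 and 6 hypo positions. In chr1:59484299-59484504, downstream of the start, iPSC 1 had 8 hyper positions averaging 56 points, iPSC 2 had 6 averaging 32.8, and GSC had 15 from 43.9 to 100 points and no hypo position. The gPSC lines had no hyper position there, with 1 and 2 hypo positions in gPSC 1 and gPSC 2, and over its whole window gPSC 1 was called hypo. At 4 positions GSC stood at 100 points, so that the reference had no measured methylation there. The measured level of iPSC 1 at these positions was then 61.8% to 64.7%, at an unknown depth. At shared positions iPSC 1 minus GSC was −29.8 points (8 positions, −38.2 to −17.1) and iPSC 2 minus GSC was −45.6 points (6 positions, −59.5 to −10), so every shared position was lower in the iPSC line. At 4 of the 8 positions shared with iPSC 1, GSC stood at 100 points, where no line could lie above it. Beside these hyper positions iPSC 1 had 4 and iPSC 2 had 5 hypo positions, and 6 positions in each line lay beside an opposite one.

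Fzd1 held 2, 4, 17, 2 and 17 hyper positions in iPSC 1, iPSC 2, gPSC 1, gPSC 2 and GSC, and 0, 1, 17, 0 and 21 hypo positions. In chr5:4757729-4757893 near the start, gPSC 1 and GSC each had 16 hyper and 16 hypo positions, all of them beside an opposite one. The values were 32.4 to 37.6 points and −33.0 to −38.7 points in gPSC 1, against 32.4 to 41.3 points and −34.2 to −40.0 points in GSC. The 32 positions were the same in both lines, and gPSC 1 minus GSC was −0.135 points on average (−3.85 to 3.75). The other 3 lines had 1 listed position there, in iPSC 2. The same mirrored form was seen in Fzd8, where 14 of 15 positions in iPSC 1, all 14 in gPSC 2 and 23 of 30 in GSC lay beside an opposite one.

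Fzd5, a receptor needed in the placenta and eye, was called hyper in GSC. It held 4, 11, 4, 6 and 18 hyper positions in iPSC 1, iPSC 2, gPSC 1, gPSC 2 and GSC, and 3, 10, 5, 0 and 1 hypo positions. In chr1:64734908-64735135, iPSC 1 and gPSC 1 had 1 hypo position each, of −32.7 and −26.1 points. There iPSC 2 had 1 hyper position of 26.7 points and gPSC 2 none, while GSC had 10 hyper positions from 30.4 to 64.7 points. In iPSC 2, 14 of its 21 positions lay beside an opposite one. Of the other receptors, Fzd9 was called hyper in both gPSC lines and GSC, with 5, 6, 5, 6 and 8 hyper positions, Fzd3, known from axon guidance, in GSC with 8, 6, 7, 8 and 7, and Fzd4, needed for retinal vessels, in both iPSC lines with 5, 3, 3, 4 and 3. Fzd10 had both directions in every line, with 2, 11, 5, 7 and 15 hyper and 7, 10, 2, 10 and 8 hypo positions.

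The secreted antagonists carried few listed positions. Together the 8 genes held 16 hyper and 10 hypo positions in iPSC 1, 8 and 4 in iPSC 2, 17 and 8 in gPSC 1, 18 and 3 in gPSC 2, and 28 and 3 in GSC. None of the 31 positions in GSC lay beside an opposite one. Sfrp2, an Sfrp family member, held 9, 3, 5, 5 and 5 hyper positions in iPSC 1, iPSC 2, gPSC 1, gPSC 2 and GSC, and 5, 1, 2, 0 and 0 hypo positions. Upstream of it, chr3:83762438-83762617, the listed positions of all 5 lines were hyper, 3, 2, 2, 3 and 4 of them, with means of 38.4, 31.9, 31.4, 34.7 and 53.4 points. Sfrp1 was hyper in GSC and in both gPSC lines, with 0, 2, 5, 5 and 9 hyper and 4, 0, 1, 0 and 0 hypo positions, and the 4 hypo positions of iPSC 1 made it the only antagonist called hypo in a line. Sfrp5 had a promoter window called hyper in GSC, with 2, 0, 2, 3 and 4 hyper positions and 1, 0, 3, 1 and 1 hypo positions, and a mean in GSC of 33.1 points. Dkk4 had 4 hyper positions in GSC averaging 46.5 points, 2 hyper and 1 hypo in gPSC 1 and none elsewhere. Dkk1, which blocks the LRP co-receptors, had 2 hyper positions and 1 hypo position in GSC and none in any other line, and Dkk3 had 5, 3, 3, 5 and 3 hyper positions.

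Of all 1170 positions, 684 were listed in 1 line only and 30 in all 5. These 30 lay in 17 genes, 27 of them hyper and 3 hypo in every line, and Wnt9b had 4 of the hyper ones and Wnt4 had 3. Their reference level is the same in each comparison, so the 5 lines are not independent in this count. Both iPSC lines were hyper at 90 positions and both gPSC lines at 106, and 7 positions had opposite directions in 2 lines.

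The counts of the iPSC and gPSC lines did not differ beyond the spread between lines. The Wnt genes held 233.5 ± 40.3 hyper positions in iPSC and 260.0 ± 11.3 in gPSC (mean ± SD, n = 2 lines each), a difference of −26.5 with an exact two-sided permutation p of 0.667. They held 129.5 ± 3.54 hypo positions in iPSC and 113.5 ± 33.2 in gPSC, a difference of 16 with an exact permutation p of 1. With 2 lines in each group the smallest p such a test can give is 0.333. Gene by gene, each iPSC line had fewer hyper positions than each gPSC line in 5 of 35 genes (Wnt3, Wnt7a, Wnt8b, Fzd2 and Sfrp1), or 14.3%, where 13.5% of all gene windows had. Each iPSC line had more in 2 (Wnt5b and Fzd7), where 4.85% of all gene windows had. Without positions beside an opposite one, Wnt8b and Wnt5b no longer met these rules. Wnt8b then held 5, 3, 6 and 5 hyper positions in iPSC 1, iPSC 2, gPSC 1 and gPSC 2, and Wnt5b held 13, 11, 8 and 11. Wnt10a, with 0, 4, 6 and 7, joined the genes with fewer in each iPSC line. The shares over all gene windows were not computed in this way.

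Other genes of the pathway, from a list of 58 co-receptors, modulators and intracellular components of which 57 could be assessed, were counted by the same rule. In both iPSC lines 14 of the 57 were called hyper, in both gPSC lines 24 and in GSC 32, which is 24.6%, 42.1% and 56.1%, beside the 20.5%, 28% and 48.5% of all gene windows. In GSC 1 was called hypo, Lgr4, a receptor for R-spondins, which is 1.75% beside 2.72% of all gene windows. None was called hypo in both iPSC lines or in both gPSC lines, beside 0.244% and 0.232%. Without positions beside an opposite one, 17, 27 and 37 of 56 were called hyper in both iPSC lines, in both gPSC lines and in GSC, which is 30.4%, 48.2% and 66.1% beside 24.4%, 33.5% and 55.7% of all gene windows. At the promoters, of which 26 could be assessed, 4 were called hypo in GSC, or 15.4% beside 13.1% of all promoter windows. They were Lgr4 with 14 hypo positions and a mean of −31.7 points, Pygo2, a beta-catenin cofactor, with 13 and −72.3 points, Axin2, a negative regulator and common Wnt target, with 12 hypo positions and 1 hyper position and −48.0 points, and Tcf7l1, a repressor of pluripotency genes, with 10 and −53.8 points. Apc2, a relative of the beta-catenin regulator Apc, was the only promoter of the 26 called hyper in GSC, with 8 positions and a mean of 66.9 points, or 3.85% beside 12.2%. Without positions beside an opposite one, 22 promoters could be assessed, of which 4 (Celsr2, Apc2, Ctnnb1 and Tcf7) were called hyper in GSC, or 18.2% beside 16.5%, and 5 were called hypo with Lef1 added, or 22.7% beside 20.3%. In the pluripotent lines Lgr4 and Pygo2 held 0 to 2 positions at the promoter, Tcf7l1 held 3, 1, 3 and 1 hypo positions in iPSC 1, iPSC 2, gPSC 1 and gPSC 2, and Axin2 held mirrored positions in iPSC 2 and gPSC 1.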

How the data were processed

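DNA of the 6 lines was isolated with a kit, and, per the labels' protocols, a company prepared the libraries. Per the submitters' processing notes the tools include Bismark, Bowtie2, methylKit and GATK, with no version or role, and 2 names of one build, GRCm38 and mm10. Coverage minimums and how strands were handled are not stated in the labels or headers. Each of 5 lines has 2 tables of called positions. The authors deposited for each position a p-value and a q-value, and a signed score that is the methylation difference from an unnamed reference in percentage points.

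Gene spans and start sites come from RefSeq tables of GRCm38.p6. Start sites of 25 members come from its promoter table and of 5 (Wnt5a, Wnt7b, Wnt10a, Fzd2 and Fzd8) from the gene end that the deposited feature column marks as promoter. No start could be placed for 7 members, whose promoter windows were not assessed. Sequences were printed for members with an entry only. Stretches are runs of at least 4 positions with gaps of at most 150 bp, a rule chosen after seeing the data. The blocks at Wnt10b and Fzd2 are parts of such stretches, also chosen after seeing the data. Calls need at least 3 positions and 80% in 1 direction. The counts of iPSC and gPSC lines were compared by an exact permutation test over lines, which the series' design calls independent lines. GSC has 1 line and was not tested. Python 3.11.15, pandas 2.3.3 and numpy 2.4.6 were used, and the calling step was tested on simulated data.

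Members called by gene window (up to the 12 with the most positions) or at the promoter were described with values in every line. Other members are given more briefly, mostly as counts, apart from Wnt4, Fzd1 and Fzd7, described after their values were seen. Wnt1, Wnt3a, Wnt9a and Sfrp5 came in by the promoter. The members and lists were chosen with earlier results of these data known. The lines' share of GSC hyper positions, which had been planned as a result, is not reported because all tables share 1 reference.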

Additional observations from a re-analysis of the deposited data

How the results depend on the processing

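The difference in hypo positions between iPSC and gPSC changed direction, to −8.5, when the gene span alone was used. Leaving out each line in turn gave −55 to 2 for the difference in hyper positions and −7.5 to 39.5 for that in hypo positions, so that iPSC 2 decides the direction of the hyper difference (2 without it) and gPSC 2 that of the hypo difference (−7.5 without it). With a replicate block over same-numbered lines the hyper difference of −26.5 had an exact sign-flip p of 0.5 and the hypo difference of 16 a p of 1. The line numbers only name lines, and their deviations correlated at −0.117 over 15971 gene windows. With the crossed pairing, chosen after seeing the data, neither difference was called, as with the pairing by number. With 2 pairs the smallest p a sign-flip test can give is 0.5, so neither pairing could have called a difference. The 5 genes called hyper in both iPSC lines were 3 with the gene span alone, 8 with 10000 bp to each side, 8 without positions within 50 bp of an opposite one, 8 with 1 position for a call, 12 at a share of 60% and 2 at 100%, and 10 without either iPSC line, since a call then rests on the other line alone. The 9 in both gPSC lines were 16 at 60%, 1 at 100% and 11 to 14 without 1 line. The 18 in GSC were 28 at 60% and 10 at 100%. The 0 called hypo in GSC became 1 at 50 points, 2 without positions 1 bp from an opposite one, 1 without those within 50 bp, 2 without positions 1 bp from one that is opposite in any line (an alternative chosen after seeing the data) and 1 at 60%. The 0 called hypo in both gPSC lines became 1 with 1 position for a call and 0 to 1 without 1 line, and the 0 in both iPSC lines 1 without either line. Single gene calls were repeated only for the 12 called genes with the most positions, which had 17 calls. Repeats with 1 position for a call, at 60% or without 1 line only relax the rule, so they could not lose a call. Of the 237 repeats, these included, 214 kept the call, 23 lost it and 0 turned round. The cause of these changes was not tested. The depth is unknown, so that no interval can be given for a difference.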
